A study of Rattus norvegicus with 6 samples.

Results

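The genes described here are Hmga1, Hmga2, Lin28a, Lin28b, Igf2bp1, Igf2bp2 and Igf2bp3, 7 genes of an oncofetal set of chromatin and RNA regulators, chosen by symbol. The set was put together with earlier results of these data known, in which Hmga2 was among the genes most strongly up-regulated by NRG1. The NRG1 response of the 7 genes is therefore given as a description, with its error and without a p-value. Of the 17327 genes with a row in the deposited files, 5 belong to the set, and rows for Lin28b and Igf2bp3 were not found. Of these 5, Hmga1, Hmga2 and Igf2bp2 were among the 9740 genes that passed a filter on low counts and were fitted. Lin28a and Igf2bp1 did not pass.

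The cells were primary Schwann cells, the glia of peripheral nerves, from adult Wistar rats, cultured before the experiment in serum with forskolin, a compound that raises cAMP, and, by the methods of the study, recombinant soluble NRG1β1 (glial growth factor in the labels). Mock cells too had therefore been grown with this ligand before starvation. All 6 samples were then starved for 18 h in 2% serum with 10 μM forskolin. In the NRG1 group, 3 samples received 10 nM recombinant soluble NRG1β1 for 6 h, and in the mock group 3 samples received the ligand buffer, PBS with 1% BSA. Poly(A) RNA of 3 independent experiments, called cultures 1, 2 and 3 here, was sequenced, each giving 1 mock and 1 NRG1 sample. Values of single samples are given in the order of cultures 1, 2 and 3.

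HMGA1 and HMGA2 are small chromatin proteins that bind AT-rich DNA through AT-hook motifs and change how transcription factors assemble on it. Both are abundant in embryonic and tumour cells and scarce in most adult tissues. LIN28A and LIN28B are RNA-binding proteins that block the maturation of let-7 microRNAs, and let-7 in turn represses Hmga2, Lin28b and the Igf2bp mRNAs through sites in their 3′ ends. IGF2BP1, IGF2BP2 and IGF2BP3 bind mRNAs, among them those modified with m6A, and influence their stability, transport and translation. Hmga2 is a known activator of Igf2bp2 transcription during development.

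The mature let-7 microRNAs are shown because they link the members of the set to each other. The RefSeq table for the GRCr8 assembly holds 9 let-7 family members of this arm, all 22 bases long. Capitals mark the seed, bases 2 to 8 from the 5′ end, which pairs with the target mRNA. All 9 carry the same seed, and no other of the 693 mature microRNA names in the table does.
rno-let-7a-5p: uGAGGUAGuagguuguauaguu
rno-let-7b-5p: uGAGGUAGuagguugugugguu
rno-let-7c-5p: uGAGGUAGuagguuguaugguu
rno-let-7d-5p: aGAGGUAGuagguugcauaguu
rno-let-7e-5p: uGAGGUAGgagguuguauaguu
rno-let-7f-5p: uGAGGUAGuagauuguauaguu
rno-let-7g-5p: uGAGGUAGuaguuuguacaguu
rno-let-7i-5p: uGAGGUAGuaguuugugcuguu
rno-miR-98-5p: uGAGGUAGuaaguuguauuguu

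Mature let-7 was not measured, since poly(A) libraries of this kind hold long transcripts. The files have 12 rows for let-7 family genes, and their counts summed to 10, 11 and 24 without NRG1 and to 19, 22 and 38 in the NRG1 samples. None of the 12 rows passed the filter on low counts, so nothing is read from them about the microRNAs.

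Counts on genes ranged from 6821590 to 15475018 per sample, and a floor of 3 counts corresponds to between 0.19 and 0.44 CPM, counts scaled by the TMM-normalized library size. Culture 1 stood apart from cultures 2 and 3. The first principal component, with 67.9% of the variance, separated both of its samples from the other 4. Of the 10 Schwann cell markers examined, all were counted in every culture, at a summed level of 5178 to 7129 CPM in culture 1 and 13610 to 18830 CPM in cultures 2 and 3. The Schwann cell sum was lower after NRG1 in each culture, and Cdh19 and Pmp22 passed both thresholds downwards, against 1.91% of all genes. The part of this in the results was not tested. Of 10 fibroblast markers, 7 exceeded the floor in some sample and Tcf21 was at 0 in all. Their sum was 52320 and 56630 CPM in the mock and NRG1 samples of culture 1, against 13680 to 22320 CPM in cultures 2 and 3. In cultures 2 and 3 the sum was carried mostly by Col1a1, at 13400 to 21480 CPM, with Col3a1 at 169.8 to 837.1 CPM. The defining fibroblast genes Thy1 and Dcn were at 1241 and 597.9 CPM in mock sample 1 and at 0 in all 4 samples of cultures 2 and 3. Rgs5 and Abcc9, markers of mural cells, were likewise counted in culture 1 and were at 0 in cultures 2 and 3. Values of the members, and of related genes whose call changed, are therefore given with and without culture 1. In bulk RNA, fewer cells of a type and less RNA per cell cannot be told apart.

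Hmga2 was the member with the largest response. Its level was 4.58, 3.99 and 6.38 CPM in the mock samples (35, 27 and 81 counts) and 29.9, 32.8 and 50.6 CPM in the NRG1 samples (229, 292 and 784 counts). The groups did not overlap, and the lowest NRG1 sample was well above the highest mock sample. The mean was 4.98 ± 1.24 CPM (SD, n = 3) in mock cells and 37.8 ± 11.2 CPM (SD, n = 3) in NRG1 stimulated cells. The fitted change was 7.54-fold, a log2 fold change of 2.92 (standard error 0.17), with a 95% interval of 5.88- to 9.68-fold. By log2 fold change it ranked 5 among the 9740 genes tested.

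The increase of Hmga2 was of similar size in each culture. The ratio of NRG1 to mock was 6.54 in culture 1, 8.22 in culture 2 and 7.93 in culture 3. The exact 95% intervals of these ratios, which cover counting error only, were 4.57 to 9.62, 5.53 to 12.7 and 6.30 to 10.1, and all 3 overlapped. The log2 ratios of the 3 pairs had an SD of 0.18, against a median SD of 0.22 over all genes tested. Without culture 1, the log2 fold change of Hmga2 was 3.01 (standard error 0.24). In cultures 2 and 3 the fibroblast genes Thy1 and Dcn were at 0. Other fibroblast markers were counted there, Col1a1 and Col3a1 at high levels and Twist2 and Pdgfra at low ones. The part of the cell types in the response of Hmga2 was not tested.

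Hmga1, which encodes the other AT-hook protein of the family, was also up-regulated, with levels that varied more. It was counted at 35.2, 135.3 and 160.7 CPM in the mock samples, and at 147.4, 388.6 and 286.6 CPM in the NRG1 samples. NRG1 sample 1 lay below mock sample 3, so the groups overlapped when the cultures were pooled, although the NRG1 sample was the higher in every pair. Mock cells averaged 110.4 ± 66.4 CPM (SD, n = 3), and NRG1 stimulated cells averaged 274.2 ± 121.1 CPM (SD, n = 3). The fitted change was 2.73-fold, a log2 fold change of 1.45 (standard error 0.18), with a 95% interval of 2.09- to 3.57-fold. This interval does not cover the differences between cultures given below. The ratios of cultures 1 and 3, 4.19 and 1.78, lie outside it.

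**Figure D1:**
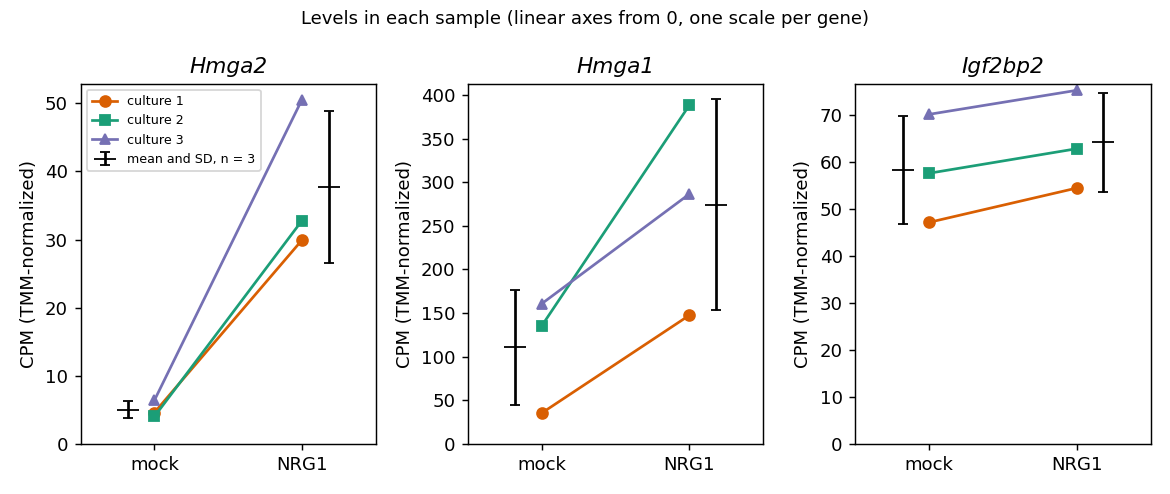
Levels of Hmga2, Hmga1 and Igf2bp2 in CPM in each sample, on linear axes that start at 0 and differ between genes. Lines join the mock and NRG1 samples of a culture, and black bars give the mean and SD of 3 samples. Hmga2 rises from between 3.99 and 6.38 CPM to between 29.9 and 50.6 CPM, Hmga1 starts lowest in culture 1 at 35.2 CPM, and the lines of Igf2bp2 stay nearly flat between 47.2 and 75.3 CPM.

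The ratio of NRG1 to mock for Hmga1 differed between cultures beyond counting error. It was 4.19 in culture 1 (exact 95% interval 3.67 to 4.81), 2.87 in culture 2 (2.67 to 3.09) and 1.78 in culture 3 (1.69 to 1.88). No 2 of these intervals overlapped. The ratio was largest where the mock level was lowest, and the SD of the 3 log2 ratios was 0.62, larger than or equal to that of 94.2% of the genes tested. With only 1 pair in each culture, no test of this difference was possible. Without culture 1 the log2 fold change of Hmga1 was 1.18 (standard error 0.18), and without culture 3 it was 1.80 (standard error 0.19).

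Igf2bp2, the mRNA-binding member that was well counted, changed little. It was at 47.2, 57.7 and 70.2 CPM in the mock samples, and at 54.5, 62.9 and 75.3 CPM in the NRG1 samples. The groups overlapped, and in each culture the NRG1 sample was slightly above its mock partner, with ratios of 1.15, 1.09 and 1.07. The fitted change was 1.10-fold, or 0.14 on the log2 scale (standard error 0.12), with a 95% interval of 0.93- to 1.31-fold. An increase of the size seen for Hmga1 or Hmga2 lies outside this interval. Without culture 1 its log2 fold change was 0.12 (standard error 0.18).

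**Figure D2:**
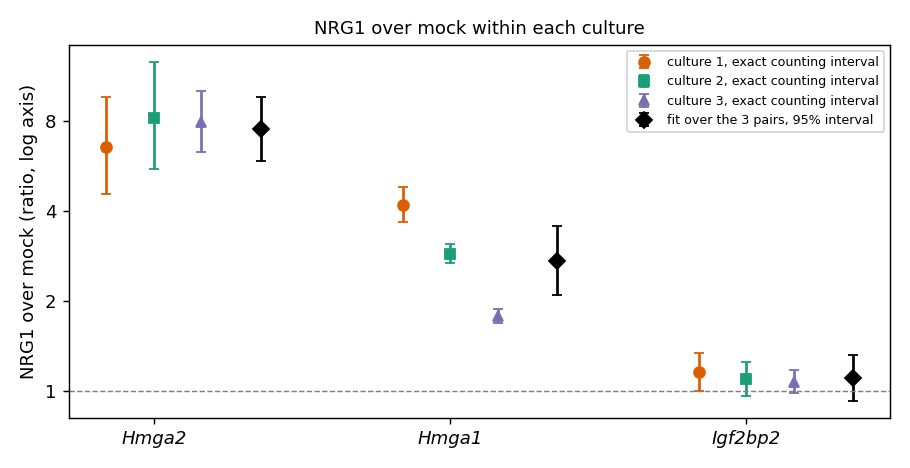
Ratio of NRG1 to mock for Hmga2, Hmga1 and Igf2bp2 on a log axis, for each culture with its exact 95% counting interval and for the fit over the 3 pairs with its 95% interval (black). The ratios of Hmga2 lie between 6.54 and 8.22 with overlapping intervals, those of Hmga1 at 4.19, 2.87 and 1.78 without overlap, and those of Igf2bp2 between 1.07 and 1.15.

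Hmga2 and Hmga1 were 2 of the 152 genes that passed both thresholds of the study upwards, which ask for more than 1 on the log2 scale together with an adjusted p no higher than 0.01. These 152 genes are 1.56% of all genes tested, and 3.47% passed in either direction. Since the set was chosen with this contrast known, nothing is read from the count of 2. Both passed when any 1 culture was left out. Without the replicate block, which sets each NRG1 sample against its own mock sample, the log2 values were 2.91 for Hmga2 and 1.31 for Hmga1, and neither these nor any other gene passed. Within a sample, the number of Hmga1 counts for each Hmga2 count was 7.69, 33.9 and 25.2 in mock cells, and 4.93, 11.8 and 5.67 after NRG1 stimulation. The ratio was lower after NRG1 in every culture. Gene lengths were not used, so these ratios show the shift between samples and not which gene is more abundant.

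The remaining members could not be followed. Lin28a had 1 count in mock sample 1, 1 count in NRG1 sample 1 and 0 in the other 4 samples. Igf2bp1 had 1, 0 and 2 counts in mock cells, and 2, 0 and 0 counts after NRG1 stimulation. Both stayed under the floor of 3 counts in every sample, where a level cannot be told from 0, and no fold change is given.

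Low counts need care in these files. Hmgb1, an abundant high mobility group protein of most nuclei, had 17 counts over the 6 samples, and Ybx1, an abundant RNA-binding protein, had 0. Col1a2, which encodes a chain of the same collagen as Col1a1, had 0 counts in 5 samples and 2 in NRG1 sample 2, beside 31460 CPM of Col1a1 in NRG1 sample 1. The RefSeq table lists 23 pseudogenes or like-named copies of Hmgb1 and 22 of Ybx1, and alignments set aside as not unique made up 24.5% to 29.9% of each file. For Hmga1 the table lists 4 such copies and for Lin28a 1, while Hmga2, Igf2bp1 and Igf2bp2 have none by name. None of the 4 Hmga1 copies has a row in the files, so the level of Hmga1 is uncertain to the extent that reads are shared with them. The part of these copies, and of the annotation used for counting, in the low counts was not tested, so the low counts of Lin28a and Igf2bp1 do not show that these genes were not expressed.

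Whether the members differ between the 3 cultures, whatever the treatment, is a separate comparison that does not use the NRG1 contrast. It was tested by edgeR's quasi-likelihood F test of the culture terms, and describes these cultures only. Of all genes tested, 23.4% passed at an adjusted p up to 0.01. Hmga1 passed, with an adjusted p of 9.2e-05, while Hmga2 (adjusted p = 0.019) and Igf2bp2 (adjusted p = 0.04) did not. When culture 2 was left out, Hmga2 and Igf2bp2 also passed, with adjusted p-values of 0.0042 and 0.0025. The mean of both samples was 91.3 CPM in culture 1, 261.9 CPM in culture 2 and 223.6 CPM in culture 3 for Hmga1. For Hmga2 it was 17.2, 18.4 and 28.5 CPM, and for Igf2bp2 50.8, 60.3 and 72.8 CPM.

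Culture 1 decided the call for Hmga1. Between cultures 2 and 3 alone, the adjusted p of Hmga1 was 0.92, and the number of genes past the threshold fell from 2278 to 245. The low level of Hmga1 in culture 1 went with high fibroblast markers and low Schwann cell markers in the same 2 samples. The part of the cell types in the level was not tested. The range of the mock samples on the log2 scale was 2.19 for Hmga1, 0.65 for Hmga2 and 0.57 for Igf2bp2, against a median of 0.51 over all genes tested. The range of Hmga1 was at or above that of 95.1% of genes, and those of Hmga2 and Igf2bp2 at or above that of 62.0% and 55.2%.

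**Figure D3:**
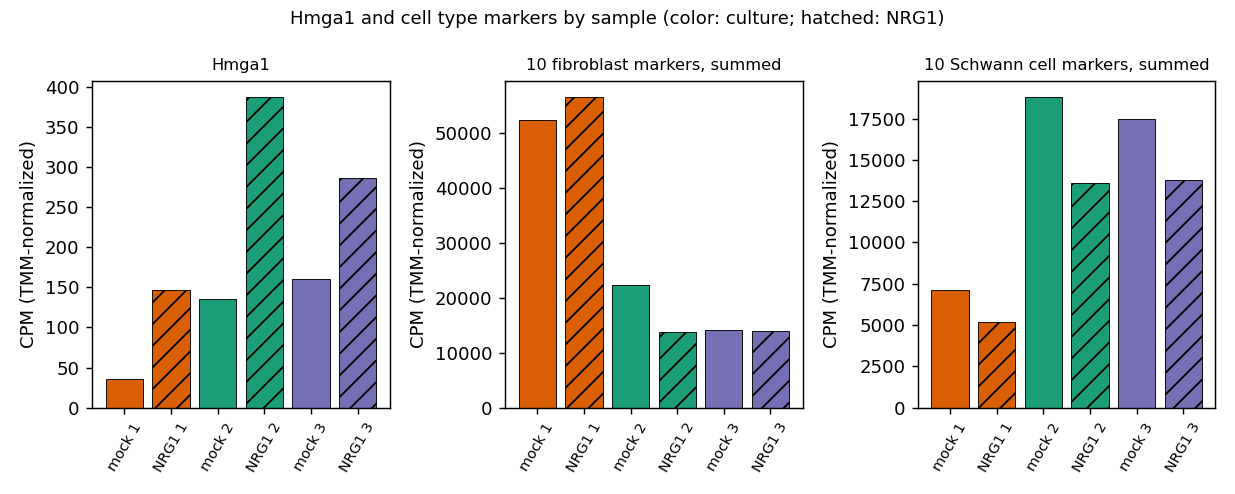
Level of Hmga1 and summed levels of 10 fibroblast and 10 Schwann cell markers in each sample, in CPM on linear axes from 0, with colours for cultures and hatching for NRG1. In culture 1 Hmga1 is at 35.2 and 147.4 CPM, the fibroblast sum at 52320 and 56630 CPM and the Schwann cell sum at 7129 and 5178 CPM. Within each treatment cultures 2 and 3 have higher Hmga1, lower fibroblast and higher Schwann cell levels, and their fibroblast sum is carried mostly by Col1a1.

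The RefSeq windows of 250 bases before the annotated start are shown for the 3 members that were fitted, to compare an up-regulated pair with the member that changed little. They are written 5′ to 3′ on the strand of the gene and belong to the GRCr8 assembly. Capitals mark runs of at least 10 pyrimidines in Hmga2 and matches to the GC box GGGCGG on either strand in Hmga1 and Igf2bp2.
Hmga2, chr7:57880342-57880591, minus strand: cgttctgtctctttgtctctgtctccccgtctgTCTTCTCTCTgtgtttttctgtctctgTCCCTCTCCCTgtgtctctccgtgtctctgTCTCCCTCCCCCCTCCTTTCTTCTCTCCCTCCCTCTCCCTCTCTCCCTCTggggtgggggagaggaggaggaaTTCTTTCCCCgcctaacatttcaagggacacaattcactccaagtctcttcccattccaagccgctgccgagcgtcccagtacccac
Hmga1, chr20:5613258-5613507, plus strand: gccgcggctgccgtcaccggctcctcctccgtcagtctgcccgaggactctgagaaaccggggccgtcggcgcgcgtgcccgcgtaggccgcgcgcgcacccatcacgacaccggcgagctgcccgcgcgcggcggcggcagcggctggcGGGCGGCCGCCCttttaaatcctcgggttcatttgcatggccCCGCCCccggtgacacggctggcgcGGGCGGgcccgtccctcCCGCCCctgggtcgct
Igf2bp2, chr11:92378658-92378907, plus strand: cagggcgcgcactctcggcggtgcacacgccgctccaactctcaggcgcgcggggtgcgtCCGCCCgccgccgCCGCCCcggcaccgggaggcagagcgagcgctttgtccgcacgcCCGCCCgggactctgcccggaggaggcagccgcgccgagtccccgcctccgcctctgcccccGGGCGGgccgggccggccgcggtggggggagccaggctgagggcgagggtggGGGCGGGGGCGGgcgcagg

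The sequence before Hmga2 is unlike the other 2. It is 72.8% pyrimidine (C or T), a share that only 57 of the 33469 windows in the table reach or exceed, and its longest unbroken run of pyrimidines is 50 bases, a length found in 0.0657% of windows. It holds no GC box, has 7 CpG and a GC content of 56.4%. The windows of Hmga1 and Igf2bp2 hold 5 and 6 GC boxes, a motif present in 30.5% of all windows, and 41 and 39 CpG, against a median of 5. Their GC contents were 76.8% and 82.4%. Hmga1 and Igf2bp2 share the features of CpG-rich promoters but not the response to NRG1. Hmga1 and Hmga2 share the direction of the response but not these features. The part of these sequences in the response was not tested.

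Other motifs were searched on both strands in the same windows. AP-1 (TGANTCA, in 6.34% of all windows), the E-box CACGTG (5.59%), the ETS core CCGGAA (12.6%), E2F (TTTCCCGC, 0.813%) and the CCAAT box (34.0%) had no match in any of the 3. The GC box was the only motif with a match, so no match of another motif overlaps it, and the absence of a match says only that these letters are not in these windows.

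The genes whose levels followed Hmga2 most closely over the 6 samples, by Pearson correlation of log2 CPM, were Dvl1 (r = 0.991), Spred2 (0.990), Prkar2a (0.990), Mars (0.989) and Akap1 (0.988). The 6 samples share 3 cultures and 2 treatments, and the correlations are given as a description, as are the changes of genes picked by them. Spred2, an inhibitor of Ras and ERK signalling, was at 8.24, 7.24 and 10.5 CPM in the mock samples, and at 17.0, 17.9 and 22.8 CPM in the NRG1 samples. Its groups did not overlap, and its log2 fold change was 1.15 (standard error 0.17). Prkar2a and Akap1, a regulatory subunit of protein kinase A and an anchoring protein for that kinase, had log2 fold changes of 0.85 and 0.84. Hmga1 followed other genes, with high correlations for Lsm4 (r = 0.995), Nvl (0.993), Mrpl43 (0.993) and Map3k6 (0.992). Among the members r was 0.782 between Hmga1 and Igf2bp2, 0.711 between Hmga1 and Hmga2, and 0.472 between Hmga2 and Igf2bp2.

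Around the set, 8 lists of related genes were followed. They name 111 genes, of which 100 have a row and 84 were tested. Past both thresholds were 2 genes, Ccnd1 and Dlk1, both upwards, against 1.56% of all genes in that direction, and no gene of these lists downwards, against 1.91%. At an adjusted p up to 0.01 without a fold threshold, 7 of the 84 rose (8.33%, against 6.31% of all genes) and 3 fell (3.57%, against 5.51%). At an unadjusted p under 0.05, edgeR had 21 genes up and 13 down, where 17.0% and 18.7% of all genes passed. DESeq2 at an adjusted p up to 0.01 had 9 up and 3 down, against 6.06% and 4.45% of all genes. Of the 10 genes of the lists past the adjusted p with edgeR, 5 stayed past it whichever culture was left out. The median log2 fold change of the 84 genes was -0.02, near the -0.026 of all genes tested.

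Among 21 tested genes known as let-7 targets, the median log2 fold change was 0.01, with 3 that rose and 2 that fell at an adjusted p up to 0.01. Ccnd1, which encodes the G1 cyclin D1, was at 339.7, 420.5 and 685.3 CPM in the mock samples, and at 1030.0, 1104.0 and 1558.0 CPM in the NRG1 samples, without overlap. Its fitted log2 change was 1.39 (standard error 0.13, edgeR adjusted p = 1.2e-05). The other 2 that rose, named here after their values were seen, were the transcription factors Myc (log2 fold change 0.72, standard error 0.13, edgeR adjusted p = 0.0017) and Mycn (0.98, standard error 0.19, adjusted p = 0.0023). Of those that fell, Irs2, an insulin receptor substrate, fell by 0.68 (standard error 0.15, adjusted p = 0.0049). Irs2 did not pass without culture 2 or culture 3 (adjusted p = 0.024 and 0.056), Myc without culture 1 (0.014) and Mycn without culture 2 (0.0104). The counts of 3 and 2 stand beside 6.31% and 5.51% of all genes and a list of 21, and nothing particular to let-7 targets is read from them.

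Of the genes that process microRNAs or turn over let-7, 15 were tested and 1 fell at an adjusted p up to 0.01, against 5.51% of all genes. It was Zcchc11, also called Tut4, the terminal uridylyltransferase that LIN28A recruits to let-7 precursors. It was at 49.5, 27.2 and 19.4 CPM in the mock samples, and at 29.3, 11.2 and 11.2 CPM in the NRG1 samples. The groups overlapped, since NRG1 sample 1 lay above 2 of the mock samples, but the level was lower after NRG1 in each pair. The log2 fold change was -0.93 (standard error 0.15, edgeR adjusted p = 0.00072), and -1.02 without culture 1, where it also passed the fold threshold. Xpo5, which exports precursors from the nucleus, stood at a log2 fold change of 0.47 (standard error 0.12) at an adjusted p of 0.0102, just over the threshold. The list median was -0.13. Trim71, a let-7 target that is itself active in early development, had 27 counts in all and was not tested.

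Of 10 tested proteins that associate with IGF2BP complexes on mRNA, only Syncrip passed the adjusted p, upwards, against 6.31% of all genes. It was at 71.5, 72.4 and 69.3 CPM in mock cells, against 102.1, 129.4 and 113.3 CPM after NRG1 stimulation. The groups did not overlap, and the log2 fold change was 0.69 (standard error 0.12, edgeR adjusted p = 0.0011). Elavl1, an mRNA-stabilizing protein, stood at 0.48 (standard error 0.12) with an adjusted p of 0.013. Among 11 tested enzymes and readers of m6A, no gene passed at an adjusted p up to 0.01 with edgeR or DESeq2. At an unadjusted p under 0.05, edgeR had 1 up and 0 down, where 17.0% and 18.7% of all genes passed. On the log2 scale the 11 changes ran from -0.22 to 0.29 (median -0.01).

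Of 11 tested mRNAs known to be bound by IGF2BP proteins, 3 rose and 0 fell at an adjusted p up to 0.01. DESeq2 had 4 up and 0 down. At an unadjusted p under 0.05 with edgeR, 4 of the 11 were higher and 2 were lower, where 17.0% and 18.7% of all genes passed. Over all genes, 6.31% rose and 5.51% fell at the adjusted p with edgeR, and 6.06% and 4.45% with DESeq2. In a list of 11, nothing particular to these mRNAs is read from the counts. The 3 that rose were Ccnd1 and Myc, given above, and Cd44, which encodes an adhesion receptor. Cd44 was at 262.3, 833.9 and 748.8 CPM in the mock samples, and at 527.7, 1135.0 and 1061.0 CPM in the NRG1 samples. The groups overlapped through culture 1, whose 2 samples were the lowest of their groups, and the log2 fold change was 0.65 (standard error 0.14, edgeR adjusted p = 0.0045). Without culture 1 it was 0.48 (adjusted p = 0.053), and it did not pass without culture 3 either (adjusted p = 0.014). Actb, whose mRNA is the classical ligand of IGF2BP1, stood at a log2 fold change of 0.43 (standard error 0.13) at an adjusted p of 0.031. Igf2, after which the family is named, had 30 counts in all and was not tested.

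Of 8 tested genes reported downstream of Hmga2, 1 rose at an adjusted p up to 0.01, against 6.31% of all genes. It was Snai1, a repressor that drives the loss of epithelial junctions, at 122.1, 8.87 and 12.5 CPM in the mock samples, and at 146.6, 18.4 and 27.3 CPM in the NRG1 samples. Culture 1 was far above the other cultures in both groups. The log2 fold change was 0.75 (standard error 0.17, edgeR adjusted p = 0.0059). Without culture 1 it was 1.10 and passed both thresholds, while without culture 2 or culture 3 the adjusted p was 0.019 and 0.048 and the gene no longer passed. Its relative Snai2 stood at -0.57 (standard error 0.20) with an adjusted p of 0.052. Snai2 too was far higher in culture 1, at 35.0 and 23.9 CPM in the mock and NRG1 samples, against 2.32 to 3.99 CPM in cultures 2 and 3. Without culture 1 its log2 fold change was -0.58 (edgeR adjusted p = 0.28). Sox2, a transcription factor of immature glia, and Junb stood at 0.30 and -0.13 with adjusted p-values of 0.090 and 0.60. The list median was -0.13.

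Other fetal growth and oncofetal genes were mostly at low counts, and 4 of the 11 with a row were tested. Dlk1, a secreted and membrane-bound protein of the Notch ligand type that is high in fetal tissues, was at 4.71, 38.9 and 36.4 CPM in the mock samples, and at 20.9, 112.1 and 100.0 CPM in the NRG1 samples. Its fitted log2 change was 1.62 (standard error 0.15, edgeR adjusted p = 8.0e-06), and like Hmga1 it was lowest in culture 1 in both groups. Without culture 1 the log2 fold change was 1.49. Mycn, given above among the let-7 targets, also belongs to this list. Afp was at 0, H19 had 48 counts and Sox11 15 counts over the 6 samples.

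Of 16 other high mobility group proteins listed, 14 have a row and 8 were tested, and none passed at an adjusted p up to 0.01 with edgeR or DESeq2. With 8 genes, and 6.31% of all genes past the threshold upwards and 5.51% downwards with edgeR, a count of 0 is near the background. Hmgb1, Hmgb2, Hmgb3 and Hmgn1, with 17, 28, 9 and 1 counts in all, could not be followed. At an unadjusted p under 0.05 with edgeR, 1 of the 8 was higher and 3 were lower, where 17.0% and 18.7% of all genes passed. In a list of 8, nothing particular to these genes is read from the counts. Hmgn2, a nucleosome-binding protein, was at 14.9, 12.6 and 7.32 CPM in the mock samples, and at 9.15, 8.76 and 3.68 CPM in the NRG1 samples. Its groups overlapped, and its fitted log2 change was -0.73 (standard error 0.20) at an adjusted p of 0.0145. RefSeq lists 7 pseudogenes or like-named copies of Hmgn2, none with a row of its own here. The level of Hmgn2 is therefore uncertain to the extent that reads are shared with them. Hmgn3 stood at -0.39 (standard error 0.12) with an adjusted p of 0.031. Ssrp1, a subunit of the FACT histone chaperone and the most counted of the 8, stood at 0.26 (standard error 0.12) with an adjusted p of 0.13. The list median was -0.16.

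**Figure D4:**
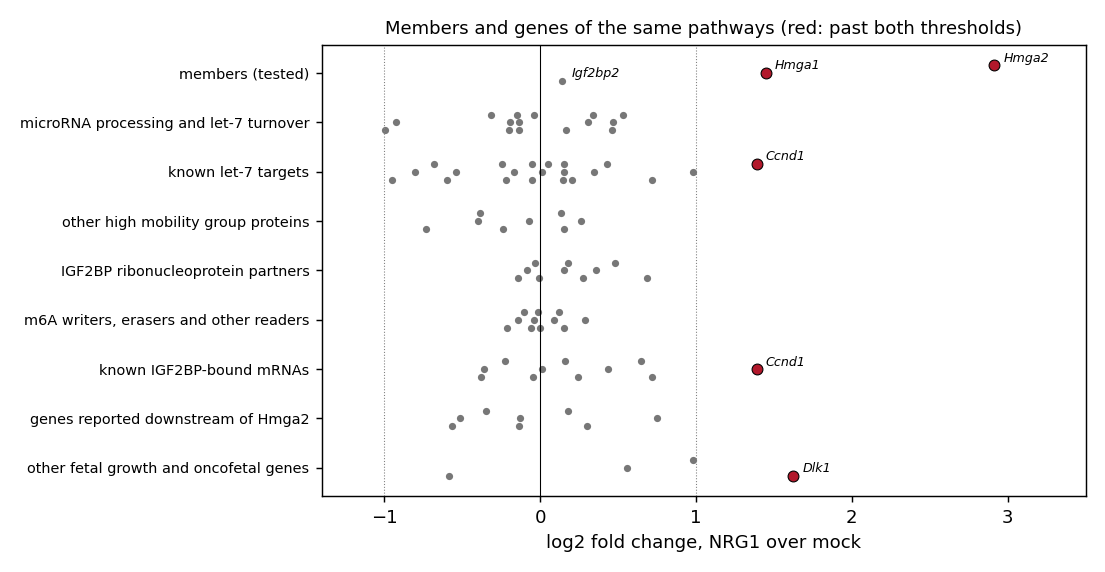
Log2 fold change of NRG1 over mock for the 3 fitted members (top) and for every tested gene of the 8 related lists, 1 point per gene and list, with dotted lines at -1 and 1 and genes past both thresholds in red. Hmga2 at 2.92 and Hmga1 at 1.45 lie to the right with Ccnd1 at 1.39 and Dlk1 at 1.62, while the list medians lie between -0.16 and 0.77.

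Proliferation markers were counted beside these genes, since HMGA proteins are known from dividing cells. The sum of 10 such markers was 189.0, 223.3 and 195.1 CPM in mock cells, against 203.7, 273.2 and 195.6 CPM after NRG1 stimulation. Of the 10, only Mcm5, a subunit of the replicative helicase, passed both thresholds. It was higher after NRG1, a direction in which 1.56% of all genes passed. Of 10 macrophage and leukocyte markers, 4 were at 0 counts in all samples, Ptprc among them, and their sum was at most 10.3 CPM. The endothelial markers Pecam1, Cdh5 and Cldn5 were at 0 in all samples, and the sum of 9 endothelial and mural markers was 81.7 to 91.2 CPM in culture 1 and 7.55 to 15.2 CPM in cultures 2 and 3. Of 9 neuronal markers Rbfox3 was at 0, and the sum, between 2295 and 8114 CPM, was carried by the neurofilament genes Nefl and Nefm.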

How the data were processed

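The deposited values are raw counts per RefSeq gene, which the authors obtained with HTSeq from TopHat2 2.0.10 alignments on rn5. HTSeq's closing lines (alignments without a gene, ambiguous or not unique) were kept out of library sizes and tests. Between 47.0% and 49.9% of alignments fell on genes. How the counting treated strand is not given in the sources used here.

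Groups and replicate numbers came from the labels. Counts were fitted with edgeR 4.0.16 in R 4.3.3 (filterByExpr with a minimum count of 10, TMM, quasi-likelihood test, replicate number as a block), with Benjamini-Hochberg adjustment over all 9740 genes tested. Standard errors were obtained from the fitted change and its F statistic. Log2 ratios of pairs used a prior count of 2. The number pairs the samples by the study's methods. Deviations from group means correlated with r of 0.906, 0.672 and 0.81 for equal numbers, and from -0.797 to 0.514 for different ones. No samples were duplicates (chi-square per degree of freedom at least 21.4).

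Members, gene lists and tests were chosen with earlier results of these data known. Named genes were the members and, in each list, those past both thresholds (at most 4) or else the 2 with the smallest p, the 2 with the highest mean level, the 5 most correlated with Hmga2 and with Hmga1, and markers. Scripts were tested on simulated counts. Alternatives were no replicate block, RLE factors, library sizes alone, DESeq2 1.42.0, no low-count filter, an adjusted p of 0.05, and leaving out each replicate. Promoter and microRNA sequences are RefSeq's for GRCr8, matched by symbol for 6 of 7 members (promoters). No coordinates of rn5 were used. A few results that the rule for named genes would include are not reported here.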

Additional observations from a re-analysis of the deposited data

How the results depend on the processing

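The log2 fold changes of the members kept their direction under every alternative, between 1.18 and 1.80 for Hmga1, 2.88 and 3.01 for Hmga2 and 0.12 and 0.19 for Igf2bp2. The replicate block decides the calls. In the fit with no replicate block edgeR called 0 genes up and 0 down, including 0 of the related lists, although 1334 genes had an unadjusted p under 0.05 and DESeq2 with the block called 140 up and 141 down. The values of Hmga1 and Hmga2 were then 1.31 and 2.91, and neither passed. In all other settings both passed. Leaving out each replicate gave 122 to 299 genes down over all genes (highest without replicate 1, lowest without replicate 2) and 0 to 2 genes down in the related lists, where the 2, Zcchc11 among them, came without replicate 1. The number of genes that differed between cultures was 3543 with no low-count filter, 3538 at an adjusted p of 0.05, and from 245 without replicate 1 to 3783 without replicate 2. The culture differences of Hmga2 had adjusted p-values from 0.004 with no low-count filter to 0.99 without replicate 3, and those of Igf2bp2 from 0.0025 without replicate 2 to 0.6 without replicate 1. Of 27 other named genes, Map3k6 lost its call of both thresholds without replicate 1 (log2 fold change 0.99), and Mycn passed both thresholds with DESeq2 (1.03) and without replicate 3 (1.21). Of the 10 genes of the related lists past the adjusted p alone, Cd44, Irs2, Myc, Mycn and Snai1 lost it without at least 1 replicate. Lin28a and Igf2bp1 stay under the floor in all samples, the deepest included. The p-values, standard errors and fitted intervals for NRG1 use a spread that edgeR estimates with information shared across genes. They do not measure the spread of a gene's own 3 ratios. The SD of the log2 ratios was 0.62 for Hmga1 and 0.06 for Igf2bp2, beside fitted standard errors of 0.18 and 0.12. With 3 pairs, all of these values describe these cultures only.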
